A study of Mus musculus with 23 samples.

Results

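In exercised mice, the cells of Met1-iRFP breast tumours that carried the tumour line's fluorescent tag were compared with cells of such tumours that did not. Met-1 is a mouse mammary carcinoma line from an MMTV-PyMT tumour on the FVB background, and iRFP, a fluorescent protein of the near infrared, is its tag. The iRFP+ sort is called cancer cells and the iRFP- sort is called tumour microenvironment (TME) cells. The members are all 11 exercised libraries, chosen by these labels, out of 23 in the series: 7 cancer libraries (numbers 1, 2, 4, 5, 7, 8 and 10) and 4 TME libraries (numbers 7, 8, 9 and 10). The other 12 libraries came from sedentary mice and entered the test of whether the contrast differed between treatments, an alternative fit of all 23 libraries, and the values given as sedentary. All mice were FVB and all RNA was polyA-selected from Trizol extracts. The labels give no age and no exercise regimen and do not say whether libraries are separate animals. The p-values therefore describe spread among libraries, which may be partly technical. The cancer cells are a single line, and the TME sort is defined only by the lack of the tag.

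A tumour holds cancer cells together with macrophages, mast cells, other leukocytes, blood vessels and fibroblasts. Macrophages and dendritic cells present antigen on MHC class II molecules and secrete chemokines that attract further leukocytes, mast cells store proteases and histamine, and fibroblasts and endothelium build matrix and vessels. Cancer cells divide, and for that they make DNA, membrane lipid and the machinery of mitosis.

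The table held whole-number counts for 48397 gene symbols. Library totals were 20073700 to 25526059 counts in cancer cells and 22682216 to 37388479 in TME cells. Mitochondrially encoded genes took 1.86 to 3.59% of the counts of the cancer libraries and 5.93, 2.61, 4.28 and 8.63% of TME libraries 7, 8, 9 and 10. The first principal component held 61.8% of the variance and separated the sorts. The tag itself was not among the features used here, so the labels were checked against markers.

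The leukocyte markers followed the labels. The summed level of 12 pan-leukocyte genes was 39.5 to 89.4 CPM (a gene's counts divided by the library total, on a common scale) in the cancer libraries, with a median of 45.3 and the highest value in library 8. The summed level was 226, 1220, 1300 and 357 CPM in TME libraries 7, 8, 9 and 10. Every TME library stood above every cancer library, and TME libraries 8 and 9 stood apart from 7 and 10. In these bulk samples, fewer cells of a type and less RNA per cell cannot be told apart.

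**Figure D1:**
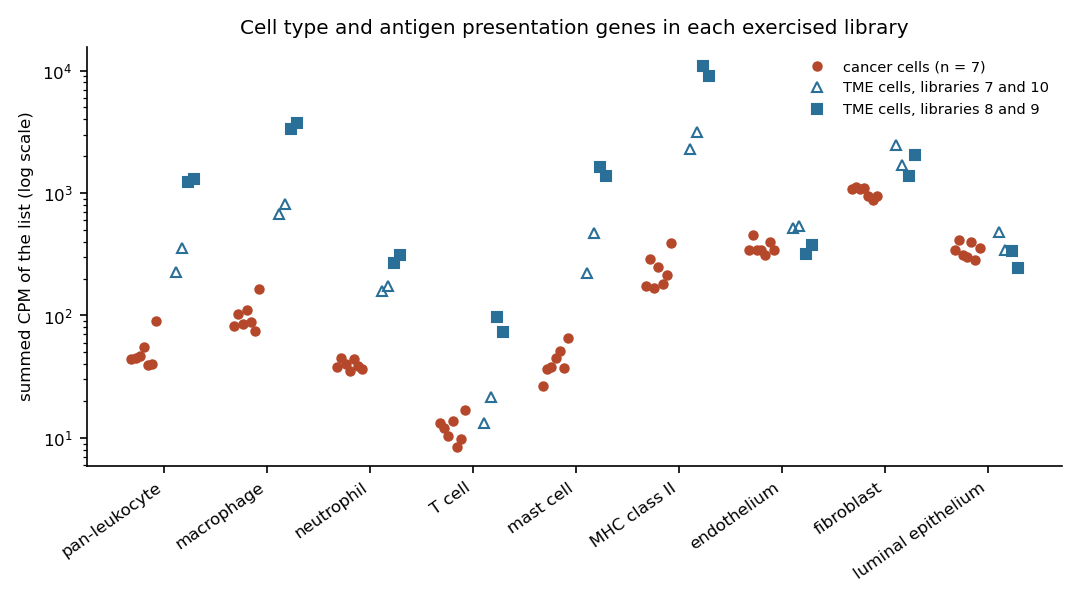
Summed CPM of the genes of 9 marker lists (log axis) in each exercised library. Dots are the 7 cancer libraries, open triangles TME libraries 7 and 10, and filled squares TME libraries 8 and 9. The pan-leukocyte sum lay between 39.5 and 89.4 CPM in cancer cells and between 226 and 1300 CPM in TME cells.

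Of 16208 genes tested, 6396 differed between the sorts (39.5%) at an adjusted p of at most 0.05 in edgeR's quasi-likelihood test. Of these, 2688 had the higher level in the cancer sort (16.6% of genes tested) and 3708 in the TME sort (22.9%). Size separated these directions further. With at least a 2-fold difference as well, 215 genes were higher in cancer cells (1.33%) and 1718 in TME cells (10.6%), together 11.9%. At 8-fold the counts were 16 and 741, and at 32-fold they were 0 and 78. Among the 2-fold genes, 74 of the 215 higher in cancer cells and 727 of the 1718 higher in TME cells had a mean level of at least 2 on the log2 CPM scale. All values of all libraries of 1 sort lay above those of the other for 1711 genes in favour of cancer cells (10.6%) and for 2202 in favour of TME cells (13.6%).

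Below, a log2 difference is cancer minus TME, so a negative value means a higher level in TME cells, and errors after ± are standard errors unless SD is written. The median over all genes tested was -0.07, and the central 98% lay between -4.69 and 1.24. Exercised libraries with the same number in both sorts varied together, with correlations of 0.164 to 0.279. With the library number as a block 4158 genes passed, 1735 higher in cancer cells and 2423 in TME cells. Only numbers 7, 8 and 10 occur in both exercised sorts, so the difference between the sorts rests on those libraries in that fit. Whether a call lost there reflects the pairing or the fewer libraries was not tested. The share of calls higher in cancer cells was 42% and depended on scaling and on which libraries entered. It was 53% with all 23 libraries in the fit, 53% without TME libraries 8 and 9, 71.9% after correction for gene length and GC content, and 70.5% with that correction and the block. The length and GC correction moved the median of all genes from -0.07 to 0.19, so changes of small size are read below against both medians. With it 5224 of the 16208 genes were higher in cancer cells and 2042 in TME cells, so list counts under it are to be read against these.

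**Figure D2:**
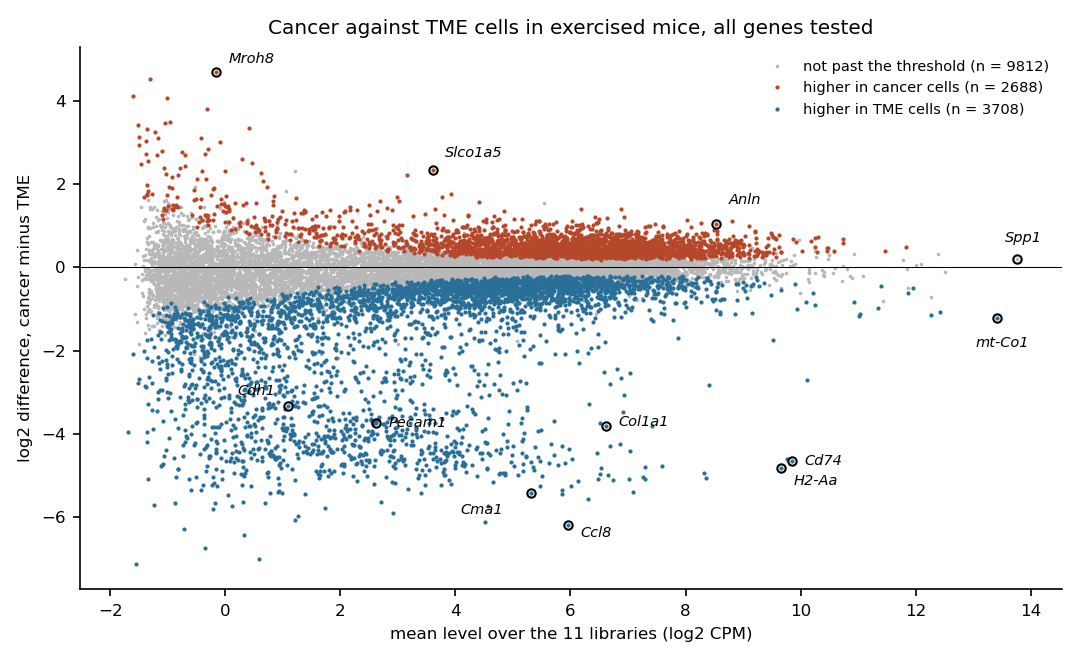
Log2 difference (cancer minus TME) against mean log2 CPM for the 16208 genes tested in exercised mice, with named genes labelled. Large differences lie mostly below 0: 741 genes were at least 8-fold higher in TME cells and 16 in cancer cells.

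Pan-leukocyte genes were all higher in TME cells, 12 of 12, against 22.9% of all genes tested. Ptprc encodes CD45, the phosphatase that defines leukocytes. It was at 4.5 to 12.3 CPM in the cancer libraries, median 5.44, and at 26.6, 200, 225 and 55.3 CPM in TME libraries 7, 8, 9 and 10. The groups did not overlap, and TME libraries 8 and 9 were several times above 7 and 10. The log2 difference of Ptprc was -4.23 ± 0.54, adjusted p = 0.000164. The list had a median difference of -4.27, and of -2.56 without TME libraries 8 and 9, with 12 of 12 still higher in TME cells. Its members included Coro1a, an actin regulator of leukocytes, at -4.36 ± 0.47, and Rac2, a GTPase of blood cells, at -4.42 ± 0.51. Cancer means of the 12 genes were 4.05 to 18.2% of TME means, with a median of 5.18%.

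Macrophage genes were higher in TME cells for 13 of 13 tested, with a median of -4.72. The median was -2.54 without TME libraries 8 and 9, and 12 genes of the list passed there. Csf1r, the receptor for the macrophage growth factor CSF1, was at 9.75 to 24.8 CPM in cancer cells, median 11.3, and at 59.2, 415, 459 and 107 CPM in TME libraries 7, 8, 9 and 10. No cancer library reached the lowest TME library, and the difference was -4.29 ± 0.54. C1qa, a chain of the complement protein C1q made by tissue macrophages, was at 7.35 to 24.4 CPM in cancer cells, median 10.4, and at 168, 630, 621 and 177 CPM in TME libraries 7, 8, 9 and 10. The groups were again separate, at -5.04 ± 0.48. Clec10a, a sugar-binding receptor of macrophages, differed by -5.56 ± 0.56 and Trem2, a lipid-sensing receptor, by -2.55 ± 0.30. Apoe, the apolipoprotein that phagocytes secrete, differed by -5.07 ± 0.42. Monocyte genes passed for 8 of 10, all higher in TME cells, among them Ccr2 at -3.93 ± 0.58 and Cx3cr1 at -4.60 ± 0.61, both chemokine receptors of monocytes. The summed level of the monocyte list overlapped between the sorts, at 653 to 1110 CPM in cancer cells and 826 to 1950 CPM in TME cells. Ace, a member of the list, had mean levels of 100 in cancer cells and 89.9 in TME cells, in CPM per kilobase of exon.

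Mast cell genes gave several of the largest differences of the whole table. Of 11 tested, 10 were higher in TME cells, with a median of -4.88. Tpsb2, a tryptase of mast cell granules on chromosome 17 (25366305 to 25369098, GRCm38), was at 0.192 to 1.56 CPM in cancer cells, median 0.844, and at 21.2, 105, 80.2 and 35.7 CPM in TME libraries 7, 8, 9 and 10. The lowest TME library was above the highest cancer library, and the difference was -6.11 ± 0.52, adjusted p = 1.73e-05. Tpsab1, the other tryptase, differed by -5.38 ± 0.67. The 2 tryptases are near-identical copies, so the division of reads between them is uncertain. Mcpt4 and Cma1, both chymases, differed by -5.43 ± 0.65 and -5.41 ± 0.63. Fcer1a, the IgE-binding chain of the mast cell Fc receptor, differed by -5.62 ± 0.69, and Hdc, which makes histamine, by -4.13 ± 0.52. Cancer means of the mast cell genes that passed had a median of 2.89% of the TME means, and library 8 had the highest summed level among cancer libraries, 65.4 CPM, against 221 to 1630 CPM in TME cells.

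Neutrophil genes passed for 9 of 10, all higher in TME cells, with a median of -4.15. S100a9, a calcium-binding protein of neutrophils named here after its values were seen, was at 0.355 to 4.41 CPM in cancer cells, median 1.19. It was at 42.4, 36.7, 30.6 and 33.2 CPM in TME libraries 7, 8, 9 and 10, a difference of -4.42 ± 0.55. Its level was similar across the 4 TME libraries, unlike that of Ptprc. Retnlg differed by -5.20 ± 0.57 and Clec4d, a lectin receptor of myeloid cells, by -4.76 ± 0.42.

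T cell and cytotoxic genes were higher in TME cells mainly through TME libraries 8 and 9. Of the T cell list 9 of 11 passed, with a median of -2.39, and without those libraries 1 passed, with a median of -0.27. Cd3e, part of the T cell receptor complex, was at 0.383 to 1.73 CPM in cancer cells, median 0.661, and at 0.737, 12.5, 8.99 and 2.82 CPM in TME libraries 7, 8, 9 and 10. TME library 7 lay within the cancer range. The difference was -2.83 ± 0.61 and its adjusted p was above the threshold without libraries 8 and 9. Cd4, the coreceptor of helper T cells, did not overlap between the sorts and differed by -4.24 ± 0.54. With the block, 6 of the T cell genes passed and Trac did not, at -1.30 with adjusted p = 0.229. Of the NK and cytotoxic list 5 of 7 passed and 1 did so without libraries 8 and 9. Gzmb, the granule protease granzyme B, was at 0.854, 10.9, 7.24 and 1.05 CPM in TME libraries 7, 8, 9 and 10 and at 0.132 to 1.03 CPM in cancer cells, median 0.399, and lost its call without libraries 8 and 9. A single B and plasma cell gene of 11, Jchain, was tested, and it passed at -2.29 ± 0.83 with adjusted p = 0.0427. It lost its call in 16 of 23 alternatives, among them the block (adjusted p = 0.423) and the length and GC correction (adjusted p = 0.0545).

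Dendritic cell genes were higher in TME cells for 9 of 10 and higher in cancer cells for the remaining gene of the list, Cd24a, at 0.37, which did not pass with the block (adjusted p = 0.113). Without TME libraries 8 and 9, 4 genes were higher in TME cells. The summed level of the dendritic cell list overlapped between the sorts, at 384 to 452 CPM in cancer cells and 330 to 400 CPM in TME cells. Clec9a, a receptor for dead cells on cross-presenting dendritic cells, differed by -5.04 ± 0.66, and Xcr1, their chemokine receptor, by -3.28 ± 0.55. Transcription factors of leukocytes followed, with 12 of 14 higher in TME cells. Spi1, which encodes PU.1, the myeloid master regulator, differed by -4.37 ± 0.55.

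MHC class II genes were higher in TME cells for 10 of 10 tested, with a median of -4.51 and a cancer mean at a median of 4.42% of the TME mean. Cd74, the invariant chain that guides class II molecules, was at 67.1 to 152 CPM in cancer cells, median 82.1, and at 729, 4100, 3550 and 1080 CPM in TME libraries 7, 8, 9 and 10. The groups did not overlap and the difference was -4.65 ± 0.48. H2-Aa, an alpha chain on chromosome 17 (34282744 to 34287823, GRCm38), was at 51.5 to 126 CPM in cancer cells, median 66.5, and at 826, 3500, 2910 and 1180 CPM in TME libraries 7, 8, 9 and 10. The difference was -4.81 ± 0.41. H2-Ab1, its beta partner, differed by -5.04 ± 0.39 and H2-Eb1 by -5.03 ± 0.42. Ciita, the coactivator that class II promoters need, differed least of the list, by -2.59 ± 0.39. All 10 passed with the block and with the length and GC correction.

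The class II promoters carry a Y box, an inverted CCAAT element read as GATTGG, within the module through which Ciita acts. RefSeq promoters (GRCm38.p6, from 250 bases before the gene start to 50 after) were available for 9 of the class II genes, and 8 held GATTGG on either strand (88.9%), against 18.2% of all 27025 genes with a promoter. The stretches below lie before the start, on the gene's strand, with GATTGG or its complement CCAATC in capitals, and are shown because the genes moved together. A match is a description of letters, not a measured binding site.
H2-Aa (chr17:34287841-34287936, minus strand): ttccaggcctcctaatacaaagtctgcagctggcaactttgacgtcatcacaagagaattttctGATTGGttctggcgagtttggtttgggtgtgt
H2-Eb1 (chr17:34305768-34305863, plus strand): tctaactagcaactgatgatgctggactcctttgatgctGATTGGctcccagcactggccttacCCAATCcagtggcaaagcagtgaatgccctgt
H2-DMb1 (chr17:34153065-34153160, plus strand): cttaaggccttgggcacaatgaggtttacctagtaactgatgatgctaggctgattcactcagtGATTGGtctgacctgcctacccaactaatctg
H2-Ob (chr17:34238783-34238878, plus strand): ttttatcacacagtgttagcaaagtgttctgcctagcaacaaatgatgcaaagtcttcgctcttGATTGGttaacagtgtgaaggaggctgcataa
The same letters are frequent elsewhere: 14 of 16 cholesterol genes (87.5%) and 10 of 13 MHC class I genes (76.9%) held GATTGG. Of these 4 genes, H2-DMb1 differed by -4.37 ± 0.42 and H2-Ob by -4.38 ± 0.50.

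Chemokines included the gene with the largest difference among those named by size. Of 23 CC and CXC chemokines tested, 18 were higher in TME cells and none in cancer cells, with a median of -4.63. Ccl8, on chromosome 11 (82115185 to 82116799, GRCm38), attracts monocytes and other leukocytes. It was at 0.887 to 4.18 CPM in cancer cells, median 1.69, and at 60, 239, 323 and 44.7 CPM in TME libraries 7, 8, 9 and 10. All TME libraries were above all cancer libraries, and the difference was -6.18 ± 0.63, adjusted p = 4.57e-05. Ccl4, which attracts macrophages and T cells, differed by -5.11 ± 0.35 and Ccl6 by -5.33 ± 0.67. Cxcl9, an interferon-induced attractant of T cells, differed by -3.74 ± 0.34. Of 13 chemokine receptors 9 were higher in TME cells, among them Cxcr4 at -4.84 ± 0.37.

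Most innate sensing genes moved the same way. Complement genes were higher in TME cells for 14 of 15, Fc receptors and their signalling partners for 13 of 14, and Toll-like receptors and adaptors for 9 of 14. Without TME libraries 8 and 9, 6 of the Toll-like list were higher in TME cells and 2 in cancer cells. The median of that list was then -0.44 in place of -1.73. C5ar1, the receptor for the complement fragment C5a, differed by -5.24 ± 0.51. Tyrobp, the adaptor DAP12, differed by -4.92 ± 0.47. Cd14, the lipopolysaccharide coreceptor, was at 24.3 to 44.7 CPM in cancer cells, median 31.9, and at 126, 257, 355 and 167 CPM in TME libraries 7, 8, 9 and 10. It differed by -2.79 ± 0.24, and cancer cells kept a measurable level. C3, the central complement component and the exception of its list, was at 388 to 655 CPM in cancer cells, median 550, and at 576, 707, 461 and 572 CPM in TME libraries 7, 8, 9 and 10. Its groups overlapped and its difference of -0.17 ± 0.15 did not pass (adjusted p = 0.412). Lysosome genes were higher in TME cells for 16 of 19 and in cancer cells for 1, and with the block the counts were 14 and 0. Ctss, a protease of antigen-presenting cells, differed by -4.94 ± 0.50, and Grn, progranulin, by -1.09 ± 0.13. Other genes named by size were Pf4, a platelet and macrophage chemokine, at -5.88 ± 0.81, Wfdc17 at -5.73 ± 0.81, Cyba, a subunit of the phagocyte oxidase, at -5.40 ± 0.38, and Osm, a cytokine of the IL-6 family, at -5.31 ± 0.42.

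Endothelial genes were higher in TME cells for 13 of 14, with a median of -3.82 that ranged from -3.89 to -3.51 over the alternatives. Their summed level overlapped between the sorts, at 314 to 458 CPM in cancer cells and 318 to 540 CPM in TME cells. Pecam1, the adhesion molecule CD31, was at 0.577 to 1.72 CPM in cancer cells, median 1.09, and at 19.7, 11.4, 16.4 and 10.8 CPM in TME libraries 7, 8, 9 and 10. The groups did not overlap and the difference was -3.74 ± 0.24. Kdr, the VEGF receptor 2, was at 0.987 to 2.16 CPM in cancer cells, median 1.57, and at 16, 6.01, 15.5 and 15.5 CPM in TME libraries 7, 8, 9 and 10. It differed by -3.09 ± 0.26. Flt1, VEGF receptor 1, was the exception. It was at 297 to 439 CPM in cancer cells, median 328, and at 342, 258, 270 and 422 CPM in TME libraries 7, 8, 9 and 10. These ranges overlapped, and its difference of 0.10 ± 0.14 did not pass (adjusted p = 0.583). Vegfa, a ligand of both receptors, also overlapped, at 319 to 792 CPM in cancer cells and 519, 346, 324 and 730 CPM in TME libraries 7, 8, 9 and 10 (-0.07 ± 0.29, adjusted p = 0.869).

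Pericyte and smooth muscle genes were higher in TME cells for 7 of 9, and fibroblast genes for 11 of 14. The summed level of the pericyte and smooth muscle list overlapped between the sorts, at 212 to 290 CPM in cancer cells and 201 to 272 CPM in TME cells. Most of both sums came from Pdgfrb, a receptor of PDGF on pericytes and fibroblasts, which was at 196 to 273 CPM in cancer cells, median 228, and at 204, 163, 171 and 212 CPM in TME libraries 7, 8, 9 and 10. The groups overlapped, and its difference of 0.25 ± 0.11 had an adjusted p of 0.0747. It passed, higher in cancer cells, in 11 of 24 alternatives. Rgs5, a marker of pericytes, differed by -4.07 ± 0.31 and Acta2, smooth muscle actin, by -3.90 ± 0.33. Col1a1, the main collagen of fibroblasts, was at 11 to 22.5 CPM in cancer cells, median 15.8, and at 397, 86.7, 287 and 191 CPM in TME libraries 7, 8, 9 and 10. The groups did not overlap, and TME library 8 had the lowest level where its leukocyte markers were high. The difference was -3.81 ± 0.36. Mfap5, a microfibril protein, differed by -4.28 ± 0.33. Without TME library 7, 7 fibroblast genes passed, and 7 passed without TME libraries 7 and 10. Some defining fibroblast genes were high in both sorts. Pdgfra was at 332 to 479 CPM in cancer cells, median 445, and at 313, 361, 352 and 419 CPM in TME libraries 7, 8, 9 and 10. Its difference of 0.25 ± 0.11 did not pass (adjusted p = 0.0771), but it passed, higher in cancer cells, in 9 of 24 alternatives, at an adjusted p of 0.035 with the length and GC correction. Dpt did not pass, at -0.09 ± 0.12 (adjusted p = 0.592). Among 20 collagens tested, 9 were higher in TME cells and 2 in cancer cells. Col4a5, a basement membrane chain, was 1 of the latter, at 0.65 ± 0.17.

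Several epithelial markers were low in both sorts. Of 16 luminal genes 7 were tested; Krt8, and Krt5 of the basal list, were too low to be tested. Epcam was at 0.603 to 2.14 CPM in cancer cells, median 1.23, and at 1.13, 1.87, 1.72 and 0.955 CPM in TME libraries 7, 8, 9 and 10. The ranges overlapped (-0.21 ± 0.33, adjusted p = 0.648). Krt18 was at 56.2 to 99.5 CPM in cancer cells and at 78.7, 44.8, 33.7 and 74.9 CPM in TME libraries 7, 8, 9 and 10, with a difference of 0.28 ± 0.23 that did not pass. Cdh1, E-cadherin, was higher in TME cells, at 1.4, 5.34, 10.5 and 0.812 CPM in libraries 7, 8, 9 and 10 against 0.0391 to 0.946 CPM in cancer cells, median 0.442. The groups overlapped at TME library 10, and the difference of -3.32 ± 0.72 lost its call without TME libraries 8 and 9. Grhl2, a transcription factor of epithelia, was the luminal gene that passed higher in cancer cells. With the length and GC correction 4 luminal genes did, the median of the list went from -0.01 to 0.57, and Krt18 was at 0.91 (adjusted p = 0.00334). The median of all genes went from -0.07 to 0.19 with that correction. Grhl2 was at 0.47 to 1.17 CPM in cancer cells, median 0.977, and at 0.194, 0.167, 0.246 and 0.191 CPM in TME libraries 7, 8, 9 and 10. Its difference of 2.13 ± 0.37 did not pass with the block (1.90, adjusted p = 0.0509). Vim, the intermediate filament of mesenchymal cells, was at 2970 to 5140 CPM in cancer cells and at 3810, 3810, 3080 and 4370 CPM in TME libraries 7, 8, 9 and 10 (-0.05 ± 0.15, adjusted p = 0.828). Twist1, a regulator of mesenchymal transition, was higher in cancer cells at 0.65 ± 0.11, and Cdh2, N-cadherin, at 0.51 ± 0.07. By these markers the cancer sort was not defined by epithelial genes, so the sort label rests on the tag and on low leukocyte and endothelial markers.

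The most abundant transcripts were shared. Spp1, osteopontin, led the protein-coding nuclear genes in both sorts, at 10700 to 21300 CPM in cancer cells, median 14300, and 12400, 11300, 11200 and 16200 CPM in TME libraries 7, 8, 9 and 10. Its ranges overlapped and the difference of 0.20 ± 0.18 did not pass (adjusted p = 0.403). Fn1, fibronectin, overlapped as well, at -0.11 ± 0.19 (adjusted p = 0.668), as did Lcn2, lipocalin 2, at 0.05 ± 0.18 (adjusted p = 0.84). Per kilobase of exon, mean levels of Spp1 were 8880 in cancer cells and 7730 in TME cells, on the CPM per kilobase scale, and those of Col1a1 were 2.61 and 36.6.

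Genes higher in cancer cells differed less than those higher in TME cells. Slco1a5, an organic anion transporter on chromosome 6 (142234227 to 142322981, GRCm38), was at 11.9 to 24.7 CPM in cancer cells, median 17.2, and at 2.79, 4.41, 3.52 and 2.67 CPM in TME libraries 7, 8, 9 and 10. The groups were well separated and the difference was 2.35 ± 0.22, adjusted p = 6.76e-06. Myo5b, a myosin that moves recycling vesicles, was at 8.47 to 19.9 CPM in cancer cells, median 11.7, and at 3.07, 1.27, 3.41 and 2.86 CPM in TME libraries 7, 8, 9 and 10, a difference of 2.22 ± 0.29. Mmp10, stromelysin 2, differed by 1.76 ± 0.22 and Btc, betacellulin, a ligand of the EGF receptor, by 1.69 ± 0.31. Ulbp1, a stress ligand of the NK cell receptor NKG2D, was at 17.1 to 32.6 CPM in cancer cells, median 29.3, and at 6.87, 11.4, 11.2 and 8.31 CPM in TME libraries 7, 8, 9 and 10. It differed by 1.56 ± 0.19 without overlap. Lgr6, a receptor of R-spondins, differed by 1.60 ± 0.16. Lancl3, Aff2, Grpr and Neto2 differed by 1.70 ± 0.17, 1.60 ± 0.20, 1.49 ± 0.21 and 1.42 ± 0.24. Arhgap5, a GTPase-activating protein, and Sema3a, a guidance cue, both differed by 1.41, with errors of 0.11 and 0.16. TME means of these 12 genes were 19.5 to 37.7% of the cancer means, so none was confined to the cancer sort. What part of the TME sort carried these transcripts was not tested.

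Genes of cell division shared this direction. Of 24 genes of G2 and M phase, 15 had a higher level in cancer cells and none in TME cells, with a median of 0.55, against 16.6% of all genes tested. The count was 22 with the length and GC correction, where the all-gene median was 0.19, and 15 with the block. With the correction 5224 of all 16208 genes tested were higher in cancer cells. Anln, anillin of the contractile ring, was at 385 to 573 CPM in cancer cells, median 445, and at 216, 241, 231 and 203 CPM in TME libraries 7, 8, 9 and 10. The groups did not overlap and the difference was 1.03 ± 0.11, adjusted p = 1.22e-05. Hmmr, a spindle assembly factor, differed by 1.02 ± 0.14 and Cenpe, a kinetochore motor, by 0.76 ± 0.13. Prc1, which bundles the microtubules of the central spindle, was at 84.2 to 129 CPM in cancer cells, median 102, and at 66.1, 70.2, 56.8 and 47.8 CPM in TME libraries 7, 8, 9 and 10, a difference of 0.79 ± 0.12. Mki67, the proliferation antigen Ki-67, was at 196 to 266 CPM in cancer cells and 198, 237, 196 and 133 CPM in TME libraries 7, 8, 9 and 10. Its difference of 0.29 ± 0.13 did not pass (adjusted p = 0.0873), though it did in 4 of 24 alternatives.

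Promoters of G2 and M phase genes are known for the cell cycle homology region, whose core reads TTTGAA. On either strand TTTGAA was found in 16 of 20 such genes with a RefSeq promoter (80%), in 3 of 20 genes of DNA replication and S phase, in 0 of 9 MHC class II genes and in 20.2% of all genes. Stretches before the start are shown for Prc1 and for Top2a, topoisomerase II, chosen after its values were seen, with the match in capitals; in Top2a it is read on the other strand, as TTCAAA.
Prc1 (chr7:80294382-80294475, plus strand): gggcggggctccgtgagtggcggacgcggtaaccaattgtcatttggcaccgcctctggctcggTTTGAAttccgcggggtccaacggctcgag
Top2a (chr11:99024190-99024276, minus strand): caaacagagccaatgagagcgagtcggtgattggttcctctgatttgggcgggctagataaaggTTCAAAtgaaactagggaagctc
Top2a was at 1040 to 1670 CPM in cancer cells, median 1410, and at 804, 988, 916 and 754 CPM in TME libraries 7, 8, 9 and 10. It differed by 0.71 ± 0.13 without overlap.

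Of 25 genes of DNA replication and S phase, 11 were higher in cancer cells and none in TME cells, with a median of 0.33. The count was 21 with the length and GC correction, where the list median was 0.64 and the all-gene median 0.19. With that correction 5224 of all 16208 genes tested were higher in cancer cells. The count was 7 without TME libraries 7 and 10. Rrm2, a subunit of the enzyme that makes deoxynucleotides, was at 237 to 398 CPM in cancer cells, median 338, and at 175, 186, 191 and 124 CPM in TME libraries 7, 8, 9 and 10. The difference was 0.97 ± 0.15. Pola1, the catalytic subunit of the polymerase that primes replication, differed by 0.95 ± 0.14.

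Lipid synthesis was shifted by less than 2-fold. Of 22 genes of cholesterol synthesis and uptake 11 were higher in cancer cells and 2 in TME cells, with a median of 0.42, and with the block the counts were 11 and 0. Nsdhl and Hsd17b7, late enzymes of the pathway, differed by 0.92 ± 0.13 and 0.90 ± 0.12. Of 14 genes of fatty acid synthesis 8 were higher in cancer cells and 3 in TME cells. The counts were 6 and 0 with the block, and 8 and 0 with the length and GC correction. With that correction 5224 of all 16208 genes tested were higher in cancer cells and 2042 in TME cells. Fasn, the fatty acid synthase, was at 973 to 1240 CPM in cancer cells, median 1120, and at 760, 792, 699 and 655 CPM in TME libraries 7, 8, 9 and 10. Its groups did not overlap, and the difference was 0.61 ± 0.09, adjusted p = 0.000154. Of 17 genes of amino acid transport and serine synthesis 8 were higher in cancer cells and 1 in TME cells, and with the block 5 and 0. Slc38a1, a glutamine carrier, differed by 0.59 ± 0.08.

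Adhesion genes divided between the sorts. Among 20 integrins, 8 were higher in cancer cells and 8 in TME cells. Itgav, the alpha V chain, was at 794 to 932 CPM in cancer cells, median 851, and at 392, 464, 582 and 549 CPM in TME libraries 7, 8, 9 and 10, a difference of 0.79 ± 0.11. Itgb8, its partner, differed by 1.17 ± 0.16, while Itgax, the CD11c chain of myeloid cells, differed by -4.22 ± 0.48. Among 14 laminins and basement membrane genes 6 were higher in cancer cells and 2 in TME cells. Lamb1, a laminin chain, differed by 0.68 ± 0.09 and Nid2, a nidogen that links laminin to collagen, by -5.01 ± 0.41.

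**Figure D3:**
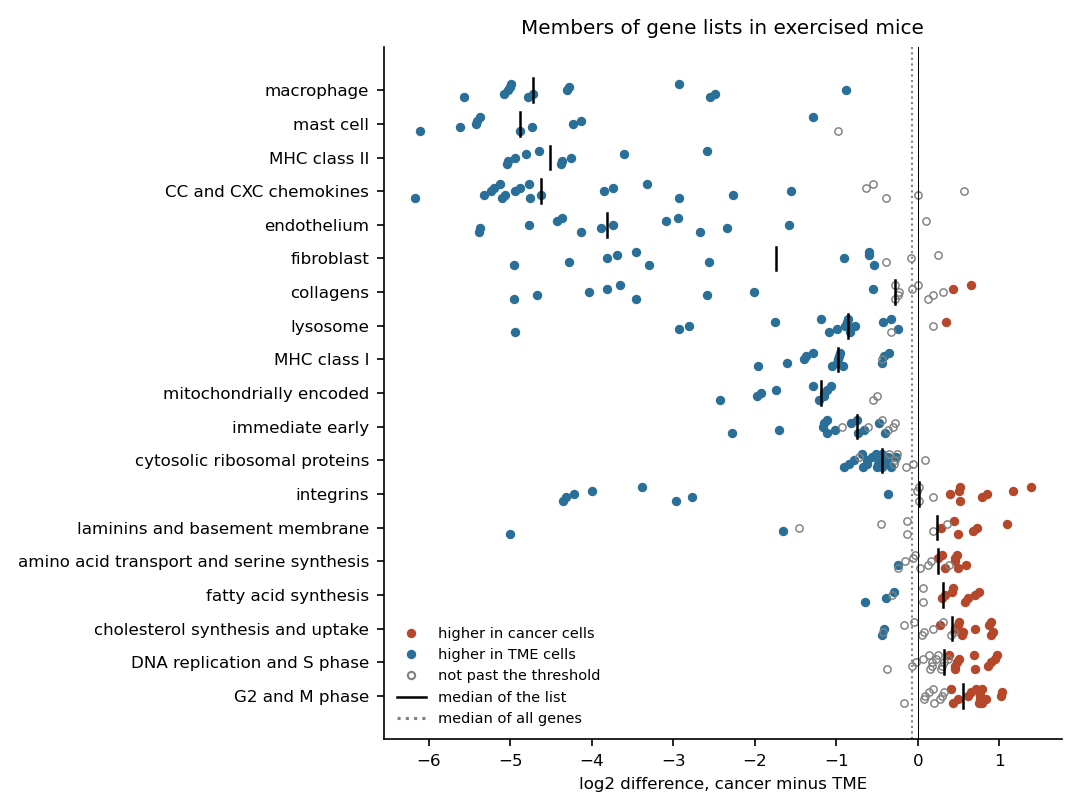
Log2 differences (cancer minus TME) of the tested members of 19 gene lists in exercised mice. Each point is a gene, bars mark list medians and the dotted line marks the median of all genes, -0.07. Leukocyte lists lie far below 0 (macrophage median -4.72), and G2 and M phase genes lie above it (median 0.55).

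MHC class I genes were higher in TME cells for 14 of 15, by less than class II genes, with a median of -0.98 that was -0.51 after the length and GC correction. H2-K1, a classical heavy chain, was at 505 to 884 CPM in cancer cells, median 796, and at 1770, 1570, 1200 and 1180 CPM in TME libraries 7, 8, 9 and 10. The difference was -0.998 ± 0.16. Psmb8, a subunit of the immunoproteasome, differed by -1.37 ± 0.17. Members of the H2-Q family are near-identical copies and their separate values are uncertain. Of 22 genes of the interferon-gamma response 13 were higher in TME cells, and 8 with the block. Gbp5, a guanylate-binding protein, differed by -1.17 ± 0.17. Of 19 type I interferon-stimulated genes 12 were higher in TME cells, and 8 with the block. Without TME libraries 8 and 9, 8 genes of each interferon list were higher in TME cells and 2 in cancer cells. The type I median was then -0.35 in place of -0.95. Rsad2, viperin, differed by -2.95 ± 0.25.

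Checkpoint ligands and receptors were higher in TME cells for 15 of 21 and in cancer cells for none, with a median of -1.88. Without TME libraries 8 and 9 the counts were 10 and 1, with a median of -0.79. With the length and GC correction they were 13 and 3, where 2042 of all 16208 genes tested were higher in TME cells and 5224 in cancer cells. Cd274, which encodes PD-L1, was at 16.9 to 30.1 CPM in cancer cells, median 18.3, and at 42, 93.1, 114 and 54.2 CPM in TME libraries 7, 8, 9 and 10. No values overlapped and the difference was -1.88 ± 0.25, adjusted p = 0.000119. Pdcd1lg2, PD-L2, differed by -4.01 ± 0.41 and Cd86, a costimulatory ligand of antigen-presenting cells, by -4.48 ± 0.42.

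Mitochondrially encoded genes were higher in TME cells for 10 of 12, with a median of -1.18. With the block 4 passed, and without TME libraries 7 and 10 the count was 1 and the median -0.48. mt-Co1, a subunit of cytochrome c oxidase, was at 4920 to 10100 CPM in cancer cells, median 7170, and at 17900, 8810, 14800 and 26500 CPM in TME libraries 7, 8, 9 and 10. TME library 8 lay within the cancer range, and the difference of -1.21 ± 0.26 lost its call without TME libraries 7 and 10 and with all 23 libraries. Cytosolic ribosomal proteins were higher in TME cells for 20 of 28, with a median of -0.44, but for 5, with 2 higher in cancer cells and a median of -0.01, after the length and GC correction. Without TME library 7 the count was 13, without TME library 8 it was 12, and with all 23 libraries it was 10. Nuclear-encoded respiratory genes were higher in TME cells for 10 of 25 and in cancer cells for 2, with a median of -0.21. After the length and GC correction the counts were 0 and 9, with a median of 0.15. With that correction 5224 of all 16208 genes tested were higher in cancer cells, and the all-gene median was 0.19. The ribosomal and the respiratory median both lay below it. Respiratory genes higher in TME cells numbered 6 with the block, 6 without TME library 7 and 4 with all 23 libraries. Immediate early genes, which respond to stimulation and to tissue handling, were higher in TME cells for 13 of 19, with a median of -0.75. After the length and GC correction 3 passed, and 7 passed without TME libraries 7 and 10. Leaving out TME library 9 alone gave 8, and leaving out TME library 10 alone gave 7. Zfp36, an RNA decay factor, was at 99 to 188 CPM in cancer cells, median 127, and at 312, 400, 643 and 321 CPM in TME libraries 7, 8, 9 and 10, a difference of -1.70 ± 0.21. Jun differed by -0.74 ± 0.14 and did not pass with that correction. The mitochondrial share, at 1.86 to 3.59% in cancer libraries and 2.61 to 8.63% in TME libraries, overlapped at TME library 8. Its part in the differences was not tested.

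Ligands and receptors were set side by side for 111 pairs, of which 102 had both members tested. Among all genes tested, 16.6% were higher in cancer cells and 22.9% in TME cells. Whether the pair counts below exceed what such shares would give was not tested. Both members were higher in TME cells in 27 pairs. Both were higher in cancer cells in 2, Jag1 with Notch1 and Efnb2 with Ephb4, of which Ephb4 and Notch1 lost their calls without TME libraries 8 and 9. Notch1 lost its call in 8 of 24 alternatives in all. The ligand was higher in TME cells and its receptor in cancer cells in 6 pairs, and the reverse held in 4. Of the former, Hgf and its receptor Met had the largest smaller difference. Hgf was at 0 to 0.201 CPM in cancer cells, median 0.115, and at 0.699, 2.47, 3.09 and 0.668 CPM in TME libraries 7, 8, 9 and 10 (-3.82 ± 0.56). Met was at 216 to 276 CPM in cancer cells, median 231, and at 108, 110, 126 and 141 CPM in TME libraries 7, 8, 9 and 10. Its groups did not overlap, and its difference of 0.97 ± 0.10 passed in every alternative run. The others were Il1b and Il1a with Il1r1, Dll4 with Notch1, Osm with Osmr, and Gas6 with Axl. Their receptors differed by 0.29 to 0.36 and none passed with the block. Adjusted p was then 0.479 for Il1r1, 0.065 for Notch1, 0.342 for Osmr, 0.103 for Axl and, among the pairs higher in cancer cells, 0.0663 for Jag1.

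The pairs with the ligand higher in cancer cells were Ulbp1 with Klrk1, Csf3 with Csf3r, Kitl with Kit and Sema3a with Nrp1. Csf3, the neutrophil growth factor G-CSF, was at 5.84 to 13.8 CPM in cancer cells, median 9.5, and at 6.56, 2.74, 2.87 and 2.48 CPM in TME libraries 7, 8, 9 and 10. TME library 7 lay within the cancer range, and the difference was 1.37 ± 0.32. Csf3r, its receptor, differed by -4.24 ± 0.49. Kitl, the growth factor of mast cells, was at 228 to 347 CPM in cancer cells, median 274, and at 155, 144, 176 and 273 CPM in TME libraries 7, 8, 9 and 10, with a difference of 0.58 ± 0.16. Kit, its receptor and a mast cell gene, differed by -4.24 ± 0.67. Klrk1, which encodes NKG2D, differed by -4.03 ± 0.60. Nrp1 differed by -0.66 ± 0.20, did not pass with the block (adjusted p = 0.137) and had the opposite sign, at 0.03, without TME libraries 8 and 9. Csf1, the ligand of Csf1r, was at 150 to 167 CPM in cancer cells and at 219, 145, 136 and 187 CPM in TME libraries 7, 8, 9 and 10, with a difference of -0.12 ± 0.11 that did not pass (adjusted p = 0.41).

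**Figure D4:**
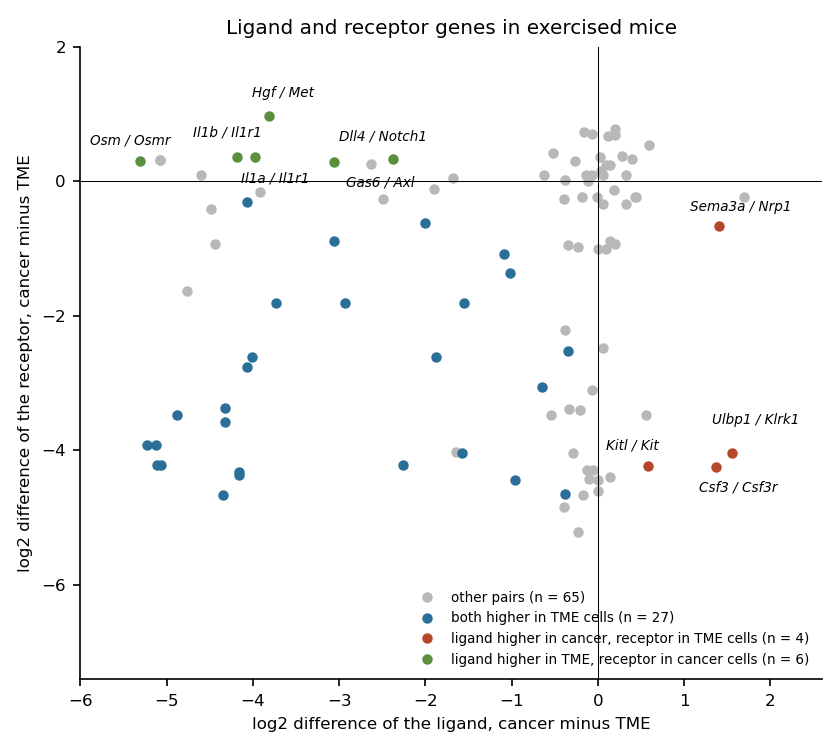
Log2 difference of the receptor against that of the ligand (cancer minus TME) for the 102 pairs with both members tested. Pairs in the lower left, with both members higher in TME cells, number 27, and the pairs with members called in opposite directions number 6 and 4.

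Calls varied with gene length. With genes in 5 equal groups by exonic length, in the shortest group (median 1062 bases) 4.01% were higher in cancer cells and 25.3% in TME cells. In the longest group (median 9292 bases) the shares were 35.7% and 14.7%. Calls varied with mean level too. In 5 equal groups by mean level, the shares were 3.55% and 19% in the lowest and 36.3% and 12.8% in the highest. Whether length and level act separately was not tested. Calls varied with chromosome as well. On chromosome 12, 40.8% of 519 genes were higher in cancer cells and 11.6% in TME cells, with a median of 0.24. On the X chromosome the shares were 30.7% and 14.3% of 511 genes. On chromosome 17 they were 8.7% and 34.8% of 736 genes. Chromosome 19 was close to this, at 8.76% and 34.2% of 491 genes, as was chromosome 7, at 9.31% and 30.8% of 1182 genes. In sedentary mice 44.5% of chromosome 12 genes were higher in cancer cells. Of the 16206 genes tested in both treatments, 6820 differed in sedentary mice in either direction, and the sedentary median over all genes was 0.01. The sedentary share of all genes higher in cancer cells is not given here, so whether 44.5% exceeds it was not tested.

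**Figure D5:**
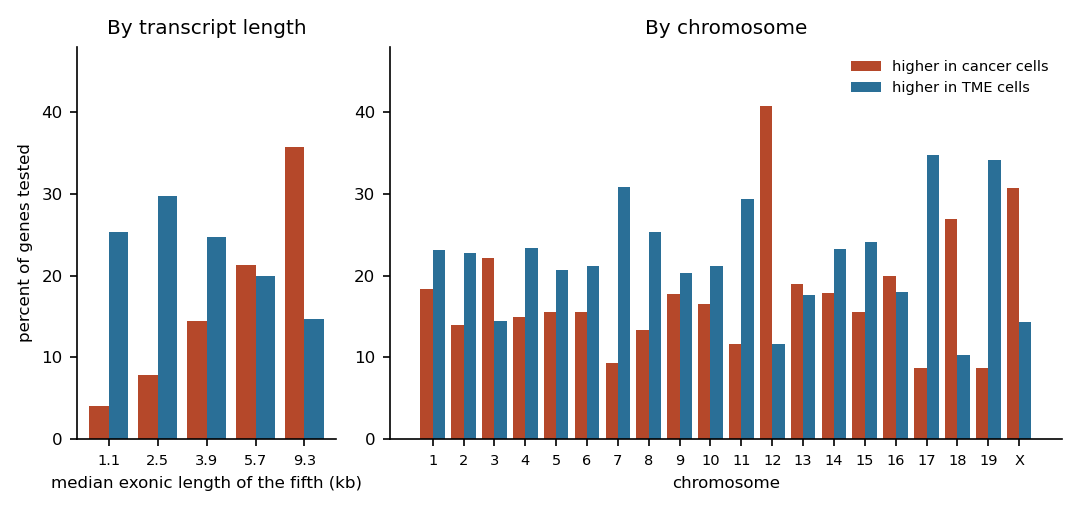
Percent of genes tested that were higher in cancer cells or in TME cells, in 5 groups of exonic length and by chromosome, in exercised mice. The cancer share rose from 4.01% in the shortest group to 35.7% in the longest, and chromosome 12 had the highest cancer share, 40.8%.

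The contrast in exercised mice was set against that in sedentary mice. Of 16206 genes tested in both, 6395 differed in exercised and 6820 in sedentary mice, and 4680 differed in both in the same direction, which is 73.2% of the former and 68.6% of the latter, while 7 had opposite directions. The difference between the contrasts was tested directly over 17503 genes, and 0 passed (0%) in edgeR's quasi-likelihood test. At an unadjusted p under 0.05, 1316 did, 585 with a higher and 731 with a lower value in exercised mice. DESeq2 called 2 genes and limma voom 36, the library number as a block gave 14, and leaving out TME library 7 gave 52. The smallest p-values belonged to Ank3, an adaptor of the membrane skeleton, at 0.72 (adjusted p = 0.237), and Helz, a helicase, at 0.53 (adjusted p = 0.358). In the other direction they belonged to Bst1 at -1.23 and Dpp7, a peptidase, at -1.25, both with adjusted p = 0.464. Simulated differences of 2-fold were recovered in 65% of cases and of 4-fold in 91%, with 100 genes changed at each size among 17087. The changed genes were drawn above a minimum mean level, and each gene otherwise had the same mean in all groups. Recovery for genes that are low in 1 sort is therefore not known from it.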

How the data were processed

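The authors' deposited table gave raw counts per gene symbol for 23 libraries, read here as whole-number counts. STAR was the aligner, featureCounts the counter and mm10 the build, per the submitters' processing notes, and libraries were made from polyA RNA with a KAPA mRNA-Seq kit, per the labels' protocols. The sources used here do not give their versions, the annotation release or whether strand was used, so overlapping and antisense genes may share reads. Groups followed the labels. Replicate numbers 7, 8 and 10 occur in both exercised sorts, and same-numbered libraries deviated together (correlations of 0.164, 0.279 and 0.2), so the fit with the number as a block is printed where it changed the call of a named gene or moved a count of calls by over 1.5 times. Same-numbered sedentary libraries showed little of this, with correlations of -0.0601, 0.0151, 0.0266 and 0.0499 for numbers 4, 6, 9 and 10. The block in the test between treatments covered these libraries too. No libraries of a group agreed within sampling noise (smallest chi-square per degree of freedom 6.4).

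Exercised libraries were fitted with edgeR 4.0.16 in R 4.3.3 (TMM scaling, filterByExpr, robust quasi-likelihood test, two-sided, Benjamini-Hochberg over all genes tested, adjusted p of at most 0.05). Rows without a gene name numbered 0. CPM values are counts divided by the library total of the genes tested times its TMM factor, and log2 differences come from the fit. The summed embryo genes were instead divided by the total of all counts, without the TMM factor. The difference between treatments was an interaction over all 23 libraries. Tests were tried on simulated data, where 73% of 2-fold and 96% of 4-fold differences were recovered, with 100 genes changed at each size among 15969. Changed genes were drawn above a minimum mean level, and the other genes had the same mean in both sorts. Alternatives used RLE and upper quartile scaling, DESeq2 1.42.0, limma 3.58.1 voom, other filters, the block, leaving out libraries, and a correction for exonic length and GC content (GENCODE, 96.9% of the genes tested). Leaving out pairs of TME libraries and the length and GC correction were chosen after seeing the data.

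The members and lists were chosen with earlier results of these data known, so list counts carry no test of their own. Named genes are the 12 with the largest difference in each direction at a mean log2 CPM of at least 2 (predicted genes, pseudogenes and receptor segments left out), the 10 with the highest level in each sort, up to 5 members of each list with the smallest p, a fixed set of markers, the 5 pairs with the largest smaller difference, and the 5 genes in each direction for the treatments. Not all of these are described. Chosen after their values were seen were Cd24a, S100a9, Ciita, H2-Ob, C3, Flt1, Pdgfra, Pdgfrb, Dpt, Col4a5, Top2a, Gas6, Axl, Efnb2, Ephb4, Xist, the genes at least 16-fold higher in cancer cells and the embryo genes. Promoter stretches are from RefSeq on GRCm38.p6.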

Additional observations from a re-analysis of the deposited data

Results flagged for a closer look

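In 324 groups of library values (142 named genes, the mitochondrial share, totals and summed marker lists), 28 had a highest or lowest library that stood far from the others by Dixon's ratio. Chance alone gives about 1 in 20 such groups, and here 8.64% stood apart, with many genes sharing a library.

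Cancer library 8 was high in leukocyte genes. Its summed level was 89.39 CPM for the pan-leukocyte list, against at most 55.42 in the other cancer libraries, and 164.3 CPM for the macrophage list, against at most 109.8. Single genes there were Csf1r at 24.8, Coro1a at 16.1, Clec10a at 10.1, Rac2 at 3.95, Clec4d at 1.36, Cyba at 1.19 and Cd4 at 0.658 CPM. All were below the TME libraries.

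Cancer library 10 was high in Fn1 at 8800, Vegfa at 792, Jun at 616, Grn at 568, Ephb4 at 170 and Trem2 at 9.86 CPM, and low in Ulbp1 at 17.1 CPM. Cancer library 7 was high in Btc at 20.3, Myo5b at 19.9, Il1a at 0.573 and Retnlg at 0.485 CPM, and low in Bst1 at 4.23 CPM. Cancer library 1 was low in Rsad2 at 1.2 CPM and high in the summed B and plasma cell list at 5.504 CPM.

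Among TME libraries, library 10 was high in Col4a5 at 401 and Cd24a at 365 CPM, library 7 was high in Csf3 at 6.56 CPM, within the cancer range, and library 8 was low in Kdr at 6.01 and Jun at 582 CPM.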

How the results depend on the processing

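Over 24 alternatives, 110 of the 127 named genes that passed also passed in each, and 12 named genes changed sign in at least 1. The count of genes past the threshold was 5626 to 6716 when 1 library was left out, and moved by over 1.5 times only with the replicate block, to 4158 from 6396. With at least a 2-fold difference it was 1850 to 2050 when 1 library was left out, with more genes higher in TME cells in every alternative. For the difference between treatments, against 0, DESeq2 called 2, limma voom 36 and the replicate block 14, and leaving out 1 library gave 0 to 52, the latter without TME library 7. Calls opposite to the reported ones numbered 37 under the length and GC correction, 11 with that correction and the block, and 0 elsewhere.

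Sign changes were in genes of small difference, apart from Trac and Nrp1. Without TME libraries 8 and 9, Trac was at 0.26, Nrp1 at 0.0295, Epcam at 0.33, Flt1 at -0.0419 and Krt18 at -0.0288. Without TME libraries 7 and 10, Csf1 was at 0.18, Dpt at 0.10, Fn1 at 0.10, Vegfa at 0.46 and Vim at 0.10. The length and GC correction gave C3 0.16, Csf1 0.23, Dpt 0.31, Epcam 0.29, Fn1 0.0532, Vegfa 0.21 and Vim 0.0869, and with the replicate block as well C3 0.0745, Csf1 0.14, Dpt 0.23, Epcam 0.67, Fn1 0.082, Vegfa 0.48 and Vim 0.14. The block alone gave Epcam 0.17, Vegfa 0.22 and Vim 0.0355. All 23 libraries gave Dpt 0.0068, Vegfa 0.024 and Vim 0.0478. No filter gave Vegfa 0.0027 and Vim 0.0188, RLE scaling and DESeq2 gave Vim 0.0046, and voom gave Csf1 0.0183, Dpt 0.0119 and Lcn2 -0.0304. With 1 library left out, Csf1 ranged from -0.1617 to 0.0554, Dpt from -0.1347 to 0.0465, Fn1 from -0.2517 to 0.0722, Lcn2 from -0.034 to 0.1351, Vegfa from -0.2587 to 0.2471 and Vim from -0.1477 to 0.0721. The cause of these changes was not tested. Of 63 list medians, 21 changed sign under some alternative. Genes at a few counts and the number of TME libraries, 4, limit precision.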

Other observations

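Carriers of lactate divided between the sorts. Slc16a3, the exporter MCT4, was at 1.02 to 2.69 CPM in cancer cells, median 1.45, and at 8.85, 27.2, 27.6 and 11.8 CPM in TME libraries 7, 8, 9 and 10, a log2 difference of -3.41 ± 0.34. Slc16a1, the carrier MCT1, went the other way. It was at 626 to 758 CPM in cancer cells, median 677, and at 387, 383, 430 and 594 CPM in TME libraries 7, 8, 9 and 10, a difference of 0.60 ± 0.12. Neither pair of groups overlapped. Matrix proteases divided likewise. Mmp14, a membrane-bound collagenase, differed by -4.69 ± 0.39 and Mmp13 by -3.32 ± 0.37, whereas Mmp10 was among the genes most raised in cancer cells. Hmox1, which breaks down haem, was at 81.6 to 166 CPM in cancer cells, median 110, and at 275, 305, 294 and 236 CPM in TME libraries 7, 8, 9 and 10, a difference of -1.28 ± 0.16. Adm, adrenomedullin, a vasodilator peptide, differed by -4.33 ± 0.38.

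Genes known from cleavage-stage embryos formed a low-level set in the cancer libraries. The set of 21 genes (members of the Zscan4, Usp17l, Tcstv, Tdpoz and Pramef families, Zfp352 and predicted relatives) was drawn up after its values were seen, so no test of it is given. Summed levels were 7.32 to 16.3 CPM in the exercised cancer libraries and 0.835, 2.67, 1.63 and 0.661 in TME libraries 7, 8, 9 and 10. All cancer libraries lay above all exercised TME libraries. Sedentary cancer libraries had 8.33 to 26.3 and sedentary TME libraries 0 to 5.53. Of the 21 genes 12 were tested, and their median log2 difference was 3.22. Many are near-identical copies, so the separate genes are uncertain.

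Xist, the noncoding RNA of the inactive X chromosome, was at 6.99 to 16.2 CPM in cancer cells, median 9.24, and at 81.6, 322, 377 and 115 CPM in TME libraries 7, 8, 9 and 10. The sorts did not overlap, with a difference of -4.46 ± 0.43. The order of the TME libraries was that of Ptprc.

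Among genes at any level, the 4 that were at least 16-fold higher in cancer cells were Gm4858, Mroh8, Rab9b and Usp17lb, all with low counts. Mroh8 had 5 to 81 counts in the cancer libraries and 0 to 4 in the TME libraries.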
